A study of Drosophila melanogaster with 20 samples.

Results

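The vacuolar proton ATPase (V-ATPase) genes of Drosophila melanogaster were examined in brain and fat body. They were taken as all genes whose symbol in the deposited tables begins with Vha and is listed in a single row, which gave 20 genes of 13972. They cover every core subunit of the pump: Vha68-1 and Vha68-2 (subunit A), Vha55 (B), Vha44 (C), Vha36 (D), Vha26 (E), Vha14 (F), Vha13 (G), VhaSFD (H), Vha100-1, Vha100-2 and Vha100-3 (a), Vha16, Vha16-2 and Vha16-3 (c), VhaPPA1-1 (c''), VhaAC39 (d), VhaM9.7-1 and VhaM9.7-2 (e), and VhaM8.9, an accessory protein that RefSeq names ATP6AP2. The tables list 14 further V-ATPase genes under CG numbers, which stand outside the Vha symbols. They count towards the subunit's total wherever a paralogue's share of its subunit is described. Such shares are of transcript levels, and protein was not measured. CG1076, CG4624, CG7026, CG9013 and CG13167, with at most 0.819 RPKM in any library, are not described further.

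The pump has a cytosolic sector, V1, in which subunit A hydrolyses ATP in a ring shared with subunit B. In its membrane sector, V0, a ring of c subunits turns against subunit a and carries protons across. The pump acidifies lysosomes, endosomes and the Golgi, and in neurons it builds the proton gradient that loads neurotransmitter into synaptic vesicles. In the fat body, the fly's counterpart of liver and adipose tissue, acid lysosomes serve autophagy, and the lysosome surface is where amino acid supply is read out to the TOR kinase. Several subunits have paralogues with separate genes, and in flies Vha100-1 is known for its role at the synapse.

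The study fed flies a high sugar diet (HSD) as a model of type 2 diabetes. The RNA came from fat body and brain of wild-type Oregon-R females listed as 5 days old and kept for 5 days on HSD or on normal food (ND), with 5 libraries each of fat body HSD, fat body ND, brain HSD and brain ND. Poly(A) RNA was sequenced with a kit that is not strand-specific, and the values are reads per kilobase of exon scaled to the mapped reads of the library (RPKM), which allow levels of different genes to be compared per length. Vha100-1 and Vha44 share exon sequence with a gene on the other strand in the Ensembl annotation of another assembly than the files use, so reads of Vha100-1 and Alg13, and of Vha44 and Hmgs, cannot be told apart there. The labels do not say that replicates are separate groups of flies, so each p-value reflects only how much these libraries vary, part of which may be technical.

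Libraries held 5601149 to 40438358 reads in the fat body and 21736407 to 46272624 reads in the brain. The floor set by 3 reads on a gene of 1 kb was 0.074 to 0.536 RPKM in the fat body and 0.065 to 0.138 RPKM in the brain. It covers counting error only. The tissue labels held against their markers, with 6 neuron genes summing to 1.70 to 8.60 RPKM in fat body libraries and 1292 to 1863 RPKM in brain libraries. A list of fat body markers summed to 39989 to 163192 RPKM in fat body libraries and 335 to 10009 RPKM in brain libraries. Brain HSD 4 (3604 RPKM), HSD 5 (1719.8 RPKM), ND 4 (3604 RPKM) and ND 5 (10009 RPKM) stood above the other 6 brain libraries in these markers, and brain HSD 4 also carried eye markers at 1313 RPKM, against 3.13 to 78.7 RPKM in the other brain libraries. Fat body HSD 4, ND 4 and ND 5 listed 401, 322 and 95 genes with 1 to 3 reads, against 1065 to 1221 in the other 7 fat body libraries. Fits were also run without fat body HSD 4, ND 4 and ND 5, without brain HSD 4 and ND 5, and within libraries 1 to 3. The paralogue shares are over all libraries and were not recomputed without any.

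As a whole, the 20 genes summed to 1405 ± 223 RPKM in fat body HSD and 1180 ± 139 RPKM in fat body ND (SD, n = 5 each), and to 3833 ± 138 RPKM in brain HSD and 3835 ± 246 RPKM in brain ND (SD, n = 5 each). Every fat body library lay below every brain library, with a highest fat body sum of 1688 RPKM and a lowest brain sum of 3578 RPKM. The members took a median of 0.297% of reads in fat body HSD, 0.260% in fat body ND, 0.830% in brain HSD and 0.824% in brain ND. In bulk tissue, fewer cells of a type and less RNA per cell cannot be told apart.

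Fat body was compared with brain in limma on log2(RPKM + 1), once on HSD and once on ND, so that the 2 comparisons shared no library. 17 members passed the filter of a mean of at least 1 RPKM. On HSD, 3 were higher in fat body (Vha68-2, Vha100-2 and VhaM9.7-1) and 13 were lower at an adjusted p under 0.05, where 27.2% of all 9315 genes tested were higher and 47.3% were lower. On ND, 2 were higher (Vha68-2 and Vha100-2) and 14 were lower, where 23.2% of 9219 genes were higher and 51.6% were lower. Without overlap between the tissues, 2 members were higher and 13 lower on HSD (22.5% and 42.1% of all genes), and 1 was higher and 13 lower on ND (19.3% and 44.5% of all genes). The members' median log2 fold change was -1.55 on HSD and -1.81 on ND, beside -0.40 and -0.61 over all genes tested. Rescaling the libraries by median ratios moved the median of all genes to -0.16 on HSD and -0.21 on ND, and the members' median minus that of all genes was then -1.13 and -1.15, beside -1.15 and -1.19 with the deposited scaling. Quantile scaling put the median of all genes at 0.16 on HSD and 0.13 on ND and widened the members' gap to it, to -1.90 and -1.96. Without fat body HSD 4, ND 4 and ND 5 the calls were again 3 higher and 13 lower on HSD and 2 higher and 14 lower on ND.

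**Figure D1:**
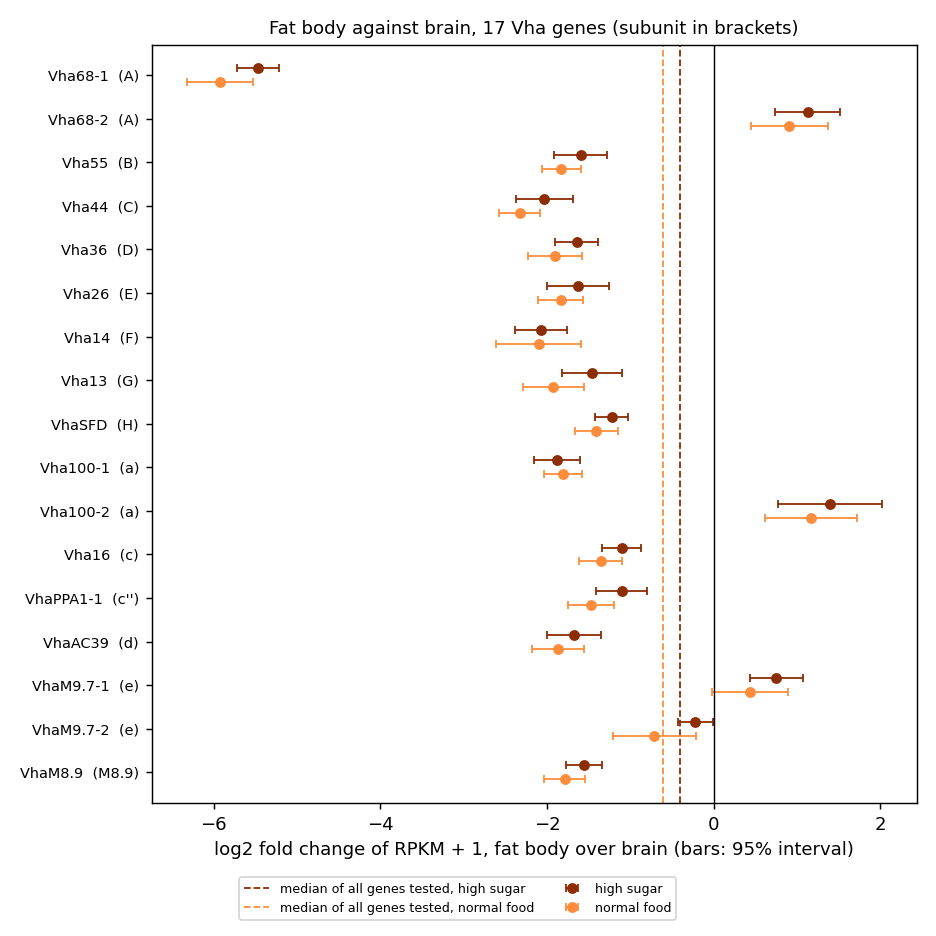
Log2 fold change of RPKM + 1, fat body over brain, for the 17 Vha genes tested, on high sugar (dark) and normal food (light), with 95% intervals from limma and dashed lines at the median of all genes tested. Vha68-1 lies far left at -5.47 and -5.93, Vha68-2 and Vha100-2 lie right of 0 on both diets, and most other genes lie between -1 and -2.5.

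Among the 20 Vha genes the widest split between tissues lay in the catalytic A subunit. Vha68-1 had 10.8, 9.08, 7.12, 10.002 and 7.43 RPKM in the fat body HSD libraries and 7.33, 6.38, 7.03, 3.17 and 5.71 RPKM in the fat body ND libraries. In the brain it had 432, 422, 446, 423 and 434 RPKM on HSD and 429, 421, 432, 377 and 389 RPKM on ND. No fat body library came near the brain range, and mean levels were 48.6-fold lower in fat body on HSD and 69.2-fold lower on ND (log2 fold change -5.47 ± 0.11 (SE), adjusted p = 8.68e-12 on HSD, and -5.93 ± 0.18, adjusted p = 6.78e-11 on ND; limma, Benjamini-Hochberg).

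Its paralogue Vha68-2 went the other way. It had 91.7, 141, 125, 107 and 86.9 RPKM in the fat body HSD libraries and 83.5, 83.1, 114, 129.7 and 80.9 RPKM in the fat body ND libraries. Brain libraries held 43.1, 40.8, 45.3, 68.9 and 51.8 RPKM on HSD and 45.0, 40.9, 45.1, 50.8 and 81.4 RPKM on ND. The fat body HSD values all lay above the brain HSD values, while brain ND 5, at 81.4 RPKM, passed the lowest fat body ND library by under 1 RPKM. Vha68-2 was higher in fat body in limma (log2 fold change 1.13 ± 0.17 (SE), adjusted p = 1.36e-04 on HSD, and 0.91 ± 0.21, adjusted p = 0.00216 on ND). Per length, Vha68-2 made up 92.3% ± 2.09 of subunit A in fat body HSD and 94.0% ± 2.22 in fat body ND, against 10.4% ± 2.17 in brain HSD and 11.4% ± 3.51 in brain ND (SD, n = 5 each). The third A gene, CG5075 (Vha68-3 in RefSeq), stayed at or below 0.179 RPKM in every library. In RefSeq's Release 6 of the genome Vha68-2 is next to CG5075, and a single other gene separates CG5075 from Vha68-1.

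The summed level of subunit A was nevertheless lower in fat body, at 119 ± 22.7 RPKM on HSD and 104 ± 21.3 RPKM on ND, against 482 ± 12.3 and 462 ± 19.99 RPKM in brain (SD, n = 5 each). Subunit B, which alternates with A in the catalytic ring and has a single gene here, averaged 131 ± 31.2 RPKM in fat body HSD and 109 ± 12.6 RPKM in fat body ND, where the ranges of A and B overlapped. In brain it averaged 389 ± 3.02 RPKM on HSD and 388 ± 11.9 RPKM on ND (SD, n = 5 each), below the summed A genes in every library. Vha55 had 103, 177, 139.6, 135 and 100.2 RPKM in the fat body HSD libraries and 101, 92.2, 124, 113 and 115 RPKM in the fat body ND libraries. Brain libraries held 386, 390.1, 388, 394 and 388 RPKM on HSD and 394, 391, 401, 371 and 381 RPKM on ND. The brain values stayed within a narrow band and every fat body value lay below them (log2 fold change -1.60 ± 0.14 (SE), adjusted p = 1.47e-06 on HSD, and -1.83 ± 0.10, adjusted p = 2.16e-08 on ND).

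**Figure D2:**
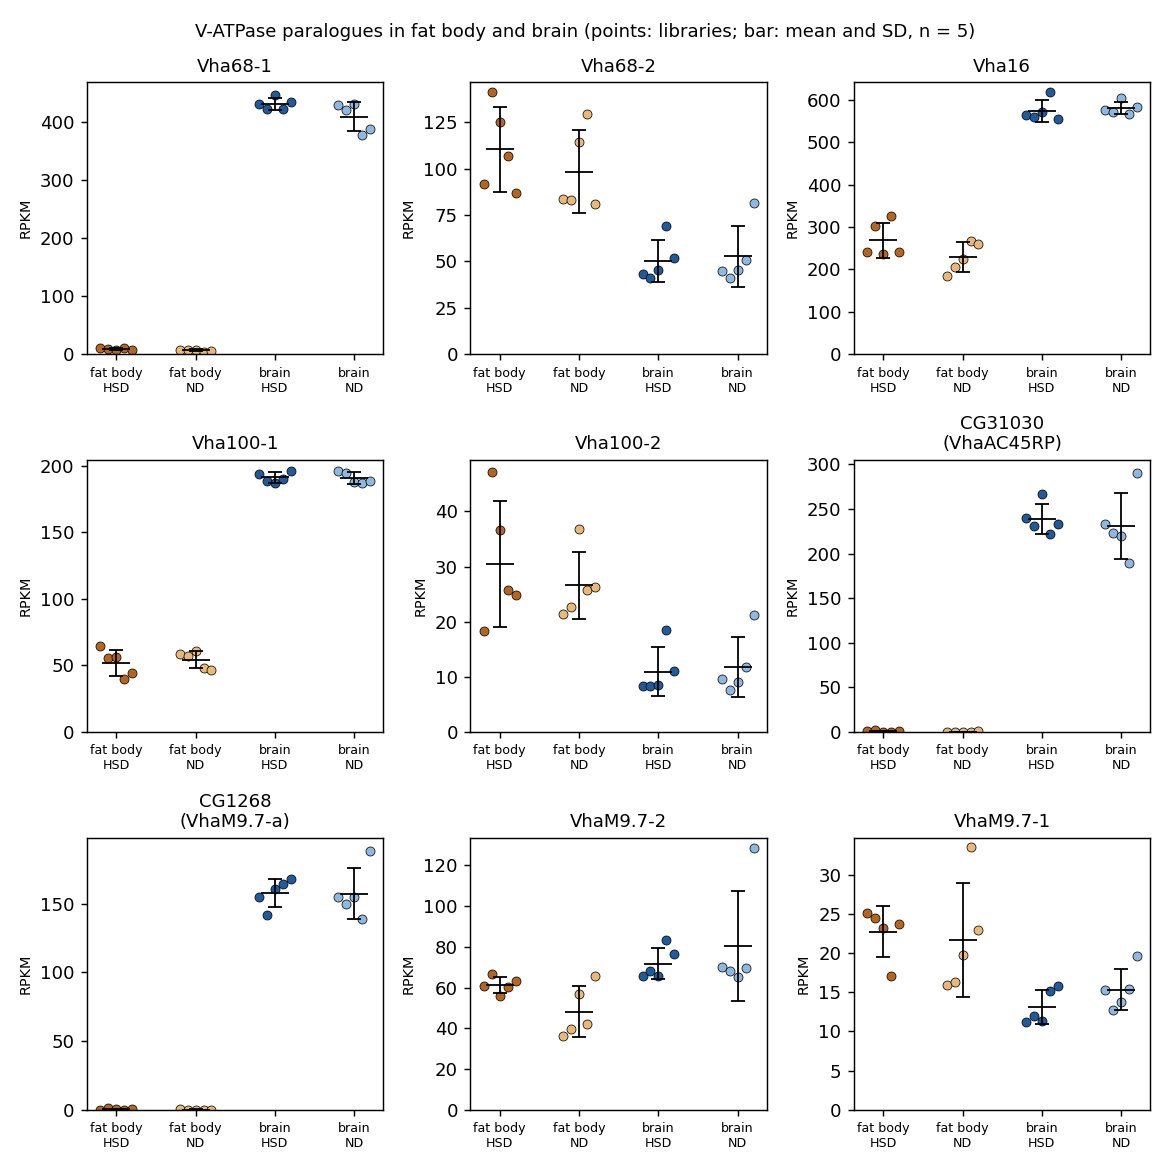
RPKM of 9 V-ATPase genes in each library (points) of fat body HSD, fat body ND, brain HSD and brain ND, with the mean and SD of 5 libraries; each panel has its own linear axis from 0. Vha68-1, CG31030 and CG1268 are near 0 in fat body, whereas Vha68-2, Vha100-2 and VhaM9.7-1 have their higher mean in fat body.

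The a subunit anchors the pump in its membrane and was also read from a pair of well-expressed paralogues. Vha100-1 had 64.3, 55.2, 56.3, 39.5 and 44.6 RPKM in the fat body HSD libraries and 58.5, 57.0, 60.4, 47.9 and 46.5 RPKM in the fat body ND libraries. In brain the values were 194, 189, 187, 190.0 and 196 RPKM on HSD and 196, 195, 188, 187 and 189 RPKM on ND. These 10 brain values had a coefficient of variation of 1.98%, the lowest among the members, and the fat body values all lay below them (log2 fold change -1.88 ± 0.12 (SE), adjusted p = 1.02e-07 on HSD, and -1.81 ± 0.11, adjusted p = 2.67e-08 on ND).

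Vha100-2 had 18.2, 47.2, 36.7, 25.7 and 24.9 RPKM in the fat body HSD libraries and 21.3, 22.6, 36.8, 25.8 and 26.2 RPKM in the fat body ND libraries. Brain libraries had 8.29, 8.29, 8.45, 18.5 and 11.1 RPKM on HSD and 9.61, 7.53, 8.97, 11.7 and 21.1 RPKM on ND. The fat body and brain ND ranges did not overlap, and on HSD the lowest fat body library (18.2 RPKM) lay just under brain HSD 4 (18.5 RPKM). Vha100-2 was higher in fat body (log2 fold change 1.39 ± 0.28 (SE), adjusted p = 9.44e-04 on HSD, and 1.17 ± 0.25, adjusted p = 0.00139 on ND), yet Vha100-1 remained the more abundant a gene there. The share of Vha100-2 in subunit a was 36.1% ± 8.86 in fat body HSD and 32.7% ± 4.97 in fat body ND, against 5.36% ± 2.02 in brain HSD and 5.78% ± 2.52 in brain ND (SD, n = 5 each). Vha100-3 had 0 reads in all fat body libraries and 4 reads over the 10 brain libraries. CG12602 (Vha100-5) reached at most 2.04 RPKM in fat body and 0.0330 RPKM in brain, and CG7678 (Vha100-4), the Release 6 neighbour of Vha100-2, at most 0.133 RPKM in any library.

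The small e subunit used 3 genes, 1 of them outside the Vha symbols. CG1268 (VhaM9.7-a in RefSeq) had 0.0871, 1.04, 0.252, 0 and 0.356 RPKM in the fat body HSD libraries and 0.486, 0.0904, 0, 0 and 0 RPKM in the fat body ND libraries. Its brain values were 155, 141, 161, 164 and 168 RPKM on HSD and 155, 150.1, 155, 139 and 188 RPKM on ND. All 10 fat body libraries together held 27 of its reads, while it accounted for 65.1% ± 2.11 of subunit e in brain HSD and 62.8% ± 4.10 in brain ND (SD, n = 5 each); it was lower in fat body (adjusted p = 3.27e-11 on HSD and 4.37e-12 on ND, limma). The symbol VhaM9.7-1 is an older name of more than 1 RefSeq gene. CG1268 has a row of its own, which leaves VhaM9.7-c for VhaM9.7-1.

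VhaM9.7-2 (VhaM9.7-b) had 60.8, 66.6, 55.6, 60.04 and 63.3 RPKM in the fat body HSD libraries and 36.2, 39.9, 56.7, 42.2 and 65.7 RPKM in the fat body ND libraries. Brain levels were 65.7, 67.9, 65.6, 83.3 and 76.3 RPKM on HSD and 70.0, 67.9, 65.2, 69.7 and 129 RPKM on ND. The tissues overlapped on both diets, and the fold change passed the threshold on ND but not on HSD (log2 fold change -0.22 ± 0.09 (SE), adjusted p = 0.0551 on HSD, and -0.71 ± 0.22, adjusted p = 0.0137 on ND). The ND call did not hold when libraries were rescaled by median ratios (-0.27, adjusted p = 0.233) or quantile-normalized (-0.24, adjusted p = 0.314), and on HSD both scalings turned the sign, to 0.04 and 0.08. With CG1268 near 0, VhaM9.7-2 formed 72.7% ± 3.01 of subunit e in fat body HSD and 68.8% ± 7.62 in fat body ND, against 29.5% ± 1.68 in brain HSD and 31.2% ± 4.10 in brain ND (SD, n = 5 each).

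VhaM9.7-1 had 25.1, 24.5, 23.2, 17.1 and 23.7 RPKM in the fat body HSD libraries and 15.9, 16.3, 19.7, 33.5 and 23.0 RPKM in the fat body ND libraries. In brain it had 11.3, 11.9, 11.4, 15.2 and 15.8 RPKM on HSD and 15.3, 12.7, 13.7, 15.4 and 19.6 RPKM on ND. On HSD all fat body values lay above all brain values, and on ND the ranges overlapped (log2 fold change 0.75 ± 0.14 (SE), adjusted p = 6.49e-04 on HSD, and 0.44 ± 0.21, adjusted p = 0.0752 on ND). The ND difference passed the threshold without brain ND 5 (0.52), without fat body ND 1 (0.53) or ND 2 (0.52), and under median-ratio (0.86) or quantile (1.21) scaling. It was 0.27, and still short of the threshold, without fat body ND 4. CG14909 (VhaM9.7-d) had 0 reads in every library.

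The accessory glycoprotein Ac45 also split by tissue, through a pair of genes listed under CG numbers. CG31030 (VhaAC45RP) had 0.484, 1.88, 0.359, 0 and 0.559 RPKM in the fat body HSD libraries and 0.267, 0.135, 0.0849, 0 and 0.426 RPKM in the fat body ND libraries. Brain libraries held 239.9, 231, 267, 222 and 233 RPKM on HSD and 233, 223, 219.5, 189 and 290.1 RPKM on ND. It was near 0 in each fat body library and lower there in limma (adjusted p = 1.89e-10 on HSD and 3.42e-12 on ND). CG8029 (VhaAC45) had 84.8, 106, 87.2, 79.9 and 71.8 RPKM in the fat body HSD libraries and 67.4, 68.1, 80.5, 76.7 and 60.7 RPKM in the fat body ND libraries. Brain libraries held 144, 146, 147, 151 and 155 RPKM on HSD and 149.5, 146, 147, 145 and 165 RPKM on ND, above every fat body library (log2 fold change -0.79 ± 0.10 (SE), adjusted p = 2.92e-05 on HSD, and -1.08 ± 0.11, adjusted p = 2.69e-06 on ND). CG8029 thus held 99.3% ± 0.650 of the pair in fat body HSD and 99.7% ± 0.275 in fat body ND, whereas in brain CG31030 was the more abundant gene, with 61.6% ± 1.97 on HSD and 60.3% ± 2.53 on ND (SD, n = 5 each).

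The remaining subunits rested mainly on 1 gene in both tissues. Transcripts for the c ring came mainly from Vha16, the most abundant member in each tissue. It had 241, 302, 235, 325 and 239.7 RPKM in the fat body HSD libraries and 185, 204, 225, 267 and 260.5 RPKM in the fat body ND libraries. Its brain values were 564, 559, 571, 619.9 and 555 RPKM on HSD and 576, 573, 605, 567 and 582 RPKM on ND. Fat body and brain did not overlap, and the difference was among the smaller ones (log2 fold change -1.10 ± 0.11 (SE), adjusted p = 2.47e-06 on HSD, and -1.36 ± 0.12, adjusted p = 9.33e-07 on ND). Vha16-2 had 0 reads in every library, and Vha16-3 was above 0 only in fat body HSD 3 (0.282 RPKM). The number of reads behind that value is uncertain, since a length recovered from 1 value is not fixed. CG6737 (Vha16-5) was the other c gene with steady reads, at 0 to 4.19 RPKM in fat body and 5.04 to 7.12 RPKM in brain, and took at most 1.55% of subunit c in any library.

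In the ring's c'' position VhaPPA1-1 had 75.4, 101, 88.2, 88.6 and 56.5 RPKM in the fat body HSD libraries and 59.2, 60.6, 77.9, 69.0 and 51.5 RPKM in the fat body ND libraries. Brain levels were 175, 163, 179.6, 179 and 175 RPKM on HSD and 180.0, 178, 172, 161 and 193 RPKM on ND. It was lower in every fat body library (log2 fold change -1.11 ± 0.14 (SE), adjusted p = 2.68e-05 on HSD, and -1.47 ± 0.12, adjusted p = 7.01e-07 on ND). Subunit d, which couples the rotor to the ring, came from VhaAC39, with 50.1, 74.0, 66.0, 89.8 and 55.5 RPKM in the fat body HSD libraries and 46.8, 47.1, 57.9, 77.1 and 58.6 RPKM in the fat body ND libraries. In brain VhaAC39 had 203, 195, 209, 231 and 225 RPKM on HSD and 205, 203, 209.7, 199.8 and 229 RPKM on ND. Here too the tissues did not overlap (log2 fold change -1.68 ± 0.15 (SE), adjusted p = 1.20e-06 on HSD, and -1.87 ± 0.14, adjusted p = 2.68e-07 on ND).

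The rotor shaft D and its partner F were lower in fat body. Vha36 (D) had 55.2, 78.2, 62.1, 53.0 and 52.6 RPKM in the fat body HSD libraries and 44.8, 49.4, 59.6, 53.1 and 49.0 RPKM in the fat body ND libraries. In brain it had 178, 173, 196, 201 and 196 RPKM on HSD and 195, 171, 184, 163 and 267 RPKM on ND. Its fat body values all lay below those of brain, where ND 5 was the highest (log2 fold change -1.65 ± 0.12 (SE), adjusted p = 1.88e-07 on HSD, and -1.90 ± 0.15, adjusted p = 3.23e-07 on ND). The D paralogue CG8310 (Vha36-3) had 2.92, 3.72, 3.44, 3.48 and 3.94 RPKM in the fat body HSD libraries and 1.93, 3.33, 2.49, 10.2 and 2.68 RPKM in the fat body ND libraries. Brain libraries held 3.12, 2.31, 3.48, 3.35 and 3.94 RPKM on HSD and 3.72, 3.12, 2.53, 4.33 and 7.93 RPKM on ND. CG8310 overlapped between tissues and did not pass the threshold (adjusted p = 0.564 on HSD and 0.691 on ND, limma), so that with less Vha36 its share of D was 5.59% ± 0.970 in fat body HSD and 7.14% ± 5.07 in fat body ND, against 1.67% ± 0.234 in brain HSD and 2.09% ± 0.622 in brain ND (SD, n = 5 each). The highest value, 10.2 RPKM, was in fat body ND 4, the shallowest library. The share of CG8310 there was 16.1%, beside a median of 5.18% over the fat body ND libraries.

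Vha14 (F) had 38.1, 51.3, 53.8, 40.7 and 33.1 RPKM in the fat body HSD libraries and 32.7, 33.8, 50.2, 73.0 and 32.1 RPKM in the fat body ND libraries. Its brain values were 172, 161, 187, 201 and 197 RPKM on HSD and 174, 163, 174, 169 and 249 RPKM on ND. Fat body ND 4 and brain ND 5 were the highest of their groups, and the tissues did not overlap (log2 fold change -2.07 ± 0.14 (SE), adjusted p = 1.07e-07 on HSD, and -2.10 ± 0.23, adjusted p = 7.51e-06 on ND).

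The stalks that hold V1 on V0 are made of subunits E and G, and subunit C links them to the membrane sector. Vha44 (C) had 26.3, 43.4, 26.7, 39.6 and 25.5 RPKM in the fat body HSD libraries and 22.0, 22.1, 25.1, 27.8 and 29.7 RPKM in the fat body ND libraries. Brain levels were 132, 138, 128, 133 and 130.4 RPKM on HSD and 131, 135, 133, 132 and 121 RPKM on ND. Of the single-gene subunits it was the furthest below brain on ND (log2 fold change -2.04 ± 0.15 (SE), adjusted p = 3.27e-07 on HSD, and -2.33 ± 0.11, adjusted p = 4.87e-09 on ND). Vha26 (E) had 93.2, 136, 103, 168 and 84.9 RPKM in the fat body HSD libraries and 85.5, 79.8, 94.3, 122 and 104 RPKM in the fat body ND libraries. In brain it had 350.0, 342, 364, 356 and 353 RPKM on HSD and 337, 341, 362, 336 and 352 RPKM on ND. Every fat body library lay under the brain range (log2 fold change -1.63 ± 0.17 (SE), adjusted p = 4.80e-06 on HSD, and -1.84 ± 0.12, adjusted p = 9.15e-08 on ND).

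Vha13 (G) was second to Vha16 in both tissues. It had 137, 219.9, 207, 205 and 125 RPKM in the fat body HSD libraries and 123, 124, 185, 100.3 and 121 RPKM in the fat body ND libraries. Brain libraries held 455, 442, 502, 501 and 509.9 RPKM on HSD and 479, 463, 466, 436 and 614 RPKM on ND. The tissues did not overlap (log2 fold change -1.46 ± 0.16 (SE), adjusted p = 9.01e-06 on HSD, and -1.92 ± 0.16, adjusted p = 7.67e-07 on ND). The regulatory subunit H, VhaSFD, had 64.3, 65.8, 61.9, 52.8 and 52.7 RPKM in the fat body HSD libraries and 50.6, 47.3, 50.5, 64.9 and 44.4 RPKM in the fat body ND libraries. Its brain values were 135, 133, 142, 147 and 141 RPKM on HSD and 141, 139, 136, 125 and 146 RPKM on ND. Its difference was one of the smaller ones, without overlap (log2 fold change -1.22 ± 0.09 (SE), adjusted p = 2.48e-07 on HSD, and -1.41 ± 0.12, adjusted p = 6.80e-07 on ND). VhaM8.9, the counterpart of the prorenin receptor, had 69.9, 96.0, 80.5, 82.8 and 70.5 RPKM in the fat body HSD libraries and 62.1, 58.1, 70.9, 68.4 and 73.2 RPKM in the fat body ND libraries. Brain levels were 229, 219.9, 248, 241 and 237 RPKM on HSD and 236, 219, 228, 207 and 273 RPKM on ND. It too was lower in every fat body library (log2 fold change -1.55 ± 0.10 (SE), adjusted p = 6.68e-08 on HSD, and -1.79 ± 0.11, adjusted p = 5.08e-08 on ND).

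The order of the members by mean level was similar in both tissues outside the paralogue pairs. Vha16 and Vha13 came first and second in each. Vha68-1 was the 17th member by level in fat body and the third in brain, while Vha68-2 was the fifth in fat body and the 15th in brain.

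Vha68-2 and Vha100-2, the minor A and a genes of brain, had their highest brain values in libraries that also held fat body markers. The yolk proteins Yp1, Yp2 and Yp3, made in the female fat body, summed to 421, 337, 250.2, 3428 and 1594 RPKM in the brain HSD libraries and 301, 548, 389.6, 3338 and 9360 RPKM in the brain ND libraries. Brain HSD 4 and ND 5 were also the highest of their diets in Vha68-2 (68.9 and 81.4 RPKM) and in Vha100-2 (18.5 and 21.1 RPKM), and brain ND 5 had 129 RPKM of VhaM9.7-2, against 65.2 to 70.0 RPKM in the other ND brain libraries. Brain ND 4, at nearly the yolk protein level of HSD 4, had 50.8 RPKM of Vha68-2 and 11.7 RPKM of Vha100-2. In brain HSD 5 these were 51.8 and 11.1 RPKM. Both libraries lay above brain libraries 1 to 3 of either diet, which had 40.8 to 45.3 RPKM of Vha68-2 and 7.53 to 9.61 RPKM of Vha100-2. Markers of other cells moved with these levels too. The glia marker sum was 1732 RPKM in brain HSD 4, against 1234 to 1653 RPKM in the other HSD libraries, and 1718 RPKM in brain ND 5, against 1304 to 1487 RPKM in the other ND libraries. Malpighian tubule markers summed to 70.5 RPKM in HSD 4 and 69.3 RPKM in ND 5, against 53.6 to 66.3 RPKM in the other 8 brain libraries. Fat body libraries summed to 21.6 to 64.2 RPKM of them, so this list may not mark tubule tissue in brain. Muscle markers were highest of their diets in HSD 4 (36.9 RPKM) and ND 5 (27.2 RPKM). Midgut markers stood at 69.5 RPKM in HSD 4, against 5.84 to 11.2 RPKM in the other brain libraries. Neuron markers were lowest of their diets in HSD 4 and ND 5, at 1553 and 1292 RPKM. The part of any of these cells' RNA in the 2 genes' levels was not tested. Without brain HSD 4 and ND 5, a choice made after seeing the data, the log2 fold changes of fat body over brain were 1.25 (adjusted p = 4.8e-05, limma) on HSD and 1.07 (adjusted p = 0.000226) on ND for Vha68-2, and 1.59 (adjusted p = 0.000274) and 1.39 (adjusted p = 7.74e-05) for Vha100-2.

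**Figure D3:**
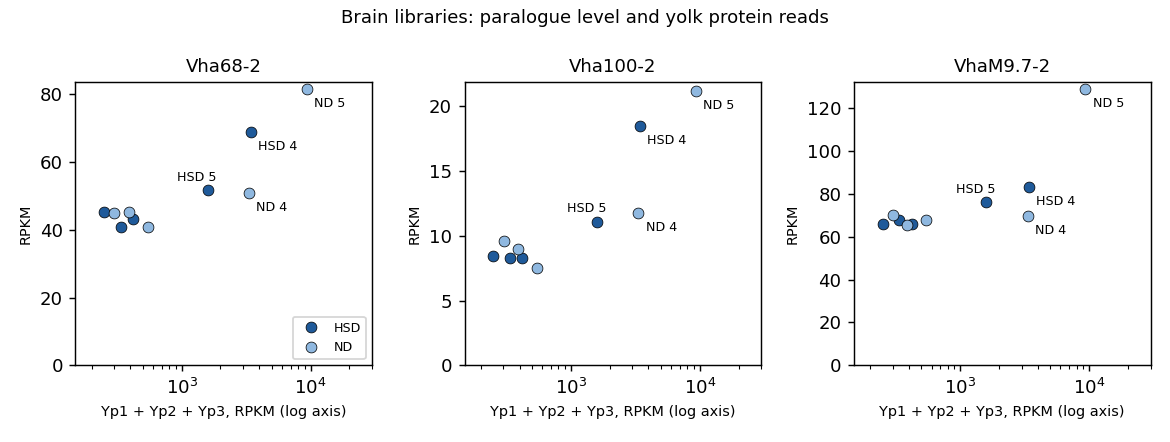
RPKM of Vha68-2, Vha100-2 and VhaM9.7-2 (linear axes from 0) against the summed RPKM of Yp1, Yp2 and Yp3 (log axis) in the 10 brain libraries, HSD dark and ND light. Libraries HSD 4 and ND 5 are high on both axes. ND 4 and HSD 5 lie above libraries 1 to 3 of both diets in Vha68-2 and Vha100-2, while ND 4 lies within their range in VhaM9.7-2.

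For high sugar feeding in the fat body, no member passed an adjusted p under 0.05 in limma, where 0 of 8223 genes tested passed (0%). No member reached an unadjusted p under 0.05, against 9.55% of all genes. Limma-voom on reads recovered from the RPKM called 0 members, with 0 members and 646 of all genes at an unadjusted p under 0.05. With same-numbered libraries fitted as pairs, 3 members (Vha13, Vha68-1 and VhaPPA1-1) and 1099 of all genes had an unadjusted p under 0.05, and 0 passed adjustment. That count depended on the libraries and the fit, while 0 members passed adjustment in each. A fit of all 20 libraries, which shares the spread across tissues, had 8 members (the lowest adjusted p was 0.0793, for Vha68-1, limma) and 1775 genes under 0.05, with 45 genes called. Without fat body HSD 4, ND 4 and ND 5 there were 3 members (Vha16, VhaM9.7-1 and VhaM9.7-2) and 1260 genes, with 0 genes called. Leaving out 1 library at a time gave 0 to 4 members, with 4 members and 984 of all genes when ND 3 was left out. The 1 omission that gave any called gene was that of HSD 5, with 19. The diets overlapped for all 17 members, as they did for all but 1.91% of genes. Of the 17 members, 16 had a log2 fold change above 0, beside 76.4% of all genes. Their median log2 fold change was 0.23, beside 0.19 over all genes tested. Rescaling by median ratios put the median of all genes at -0.01, the members' median at 0.01 and 9 of 17 members above 0.

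The 3 members with the smallest unadjusted p in fat body were Vha13, VhaM9.7-2 and Vha68-1. Vha13, with the library values given above, averaged 179 ± 44.1 RPKM on HSD and 131 ± 31.8 RPKM on ND (SD, n = 5 each), and 4 of 5 ND libraries lay below the lowest HSD library (log2 fold change 0.44 ± 0.20 SE, 95% interval -0.00 to 0.89, adjusted p = 0.524, limma). VhaM9.7-2 lay between 55.6 and 66.6 RPKM on HSD and between 36.2 and 65.7 RPKM on ND (0.38 ± 0.17, 95% interval -0.00 to 0.76, adjusted p = 0.525, limma). Vha68-1, the minor A paralogue there, spanned 7.12 to 10.8 RPKM on HSD and 3.17 to 7.33 RPKM on ND (0.54 ± 0.25, 95% interval -0.01 to 1.09, adjusted p = 0.529, limma). Vha68-1 was lowest in the shallow library fat body ND 4, and without it the log2 fold change was 0.37 (0.26 without HSD 4, ND 4 and ND 5).

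For the genes that carry the pump in fat body, the intervals set what could be seen. Vha16 had a log2 fold change of 0.23 ± 0.14 (SE, 95% interval -0.08 to 0.55) and Vha55 of 0.24 ± 0.17 (-0.13 to 0.60). For the A paralogue Vha68-2 it was 0.17 ± 0.18 (-0.23 to 0.57), and for the a paralogues it was -0.07 ± 0.16 (-0.42 to 0.28) for Vha100-1 and 0.15 ± 0.25 (-0.40 to 0.70) for Vha100-2. All other members fell between 0.02 (Vha14) and 0.35 (VhaPPA1-1). The share of Vha68-2 in subunit A and that of Vha100-2 in subunit a, given above, overlapped between the diets.

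**Figure D4:**
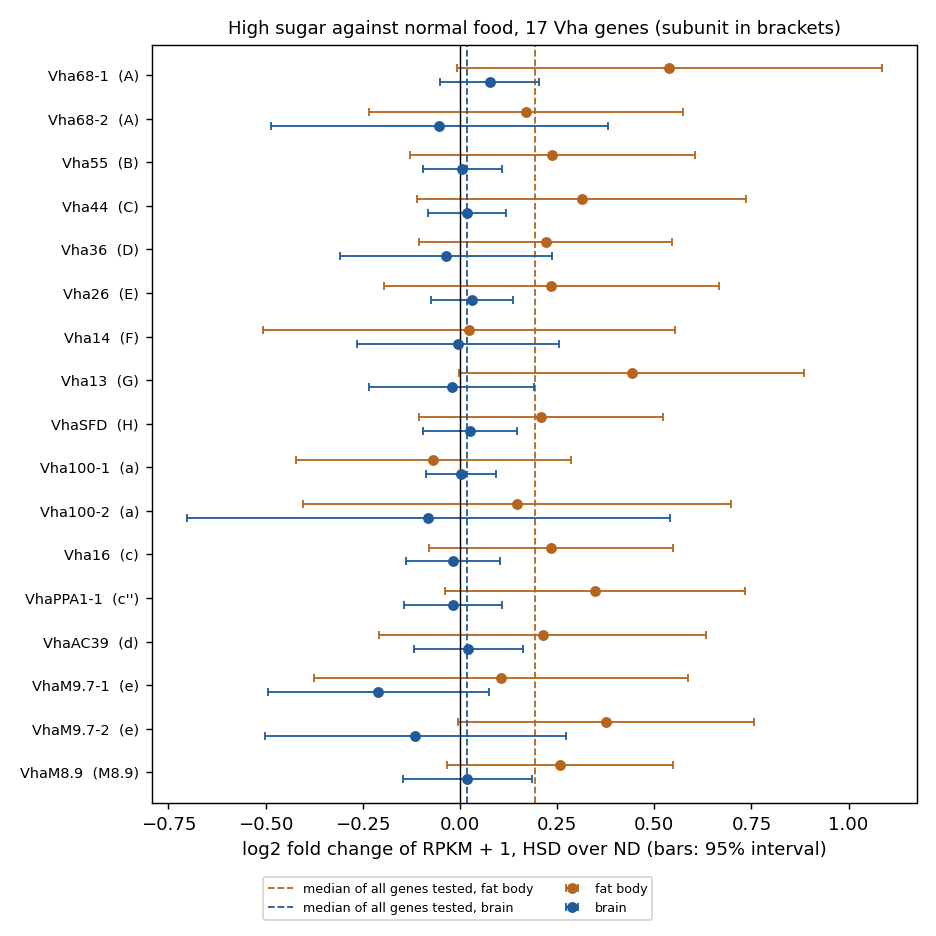
Log2 fold change of RPKM + 1, high sugar over normal food, for the 17 Vha genes tested in fat body (brown) and brain (blue), with 95% intervals from limma and dashed lines at the median of all genes tested. The fat body values scatter around the dashed line at 0.19 and the brain values around 0, and every interval includes 0.

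In some fat body libraries nearly all members lay on one side of their medians. HSD 2 had the highest sum (1688 RPKM), with 16 of 17 members above their median over the 10 libraries by a median of 0.44 on the log2 scale, beside 0.17 for all genes. ND 1 and ND 2 were at the low end, with member medians of -0.24 and -0.25, beside -0.35 and -0.27 for all genes. The yolk proteins took 5.86% to 13.6% of reads in HSD libraries and 9.88% to 24.95% in ND libraries, and ND 1 and ND 2 had the highest shares, 24.95% and 21.7%. The RPKM of every other gene is computed on the same total. Ovary markers (7 genes) summed to 22.2 to 1011 RPKM on HSD and 186 to 8800 RPKM on ND. Oenocyte markers (2 genes) summed to 10206 to 23122 RPKM on HSD and 7564 to 11685 RPKM on ND. Midgut markers (8 genes) summed to 36.0 to 234 RPKM on HSD and 12.0 to 82.0 RPKM on ND. Malpighian tubule markers (7 genes) summed to 21.6 to 64.2 RPKM on HSD and 23.6 to 41.3 RPKM on ND. In brain libraries they summed to 53.6 to 70.5 RPKM. Among fat body libraries HSD 2, HSD 3 and ND 3 were highest in these markers (64.2, 59.8 and 41.3 RPKM) and in Vha100-2 (47.2, 36.7 and 36.8 RPKM). Vha68-2 was at 141, 125 and 114 RPKM there, and at 129.7 RPKM in ND 4. The part of these yolk protein and marker levels in the members' levels was not tested. Within libraries 1 to 3 the members' median diet difference was 0.34, beside 0.33 for all genes. There 5 members and 1489 of all genes had an unadjusted p under 0.05, and 0 members and 16 genes were called. Within libraries 4 and 5 the members' median was 0.07, beside 0.00.

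**Figure D5:**
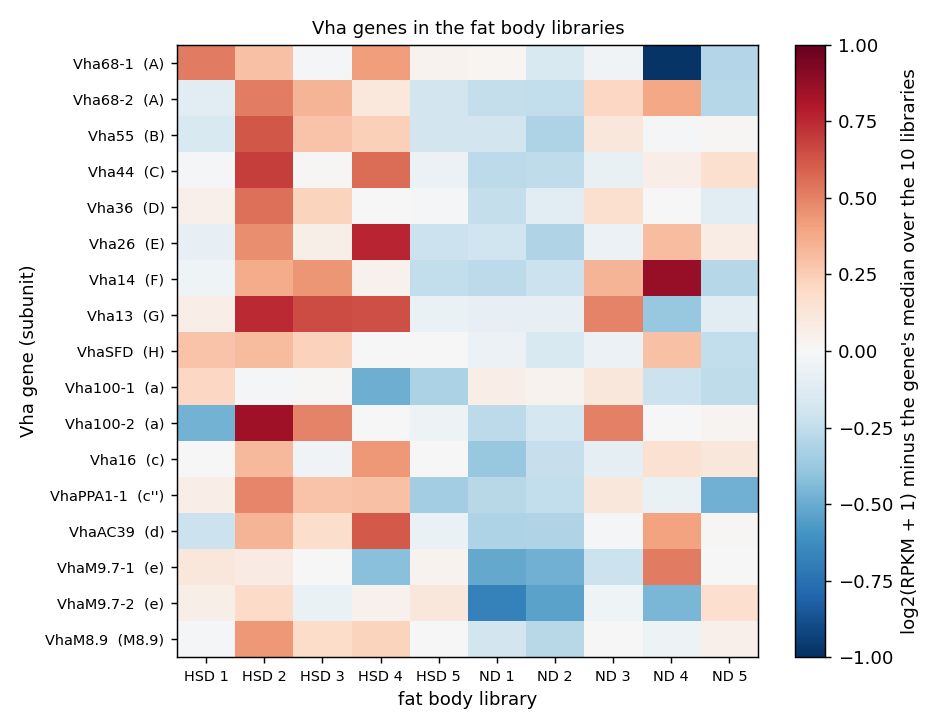
Log2(RPKM + 1) of the 17 Vha genes in each fat body library, HSD on the left and ND on the right, as the difference from each gene's median over the 10 libraries (red above, blue below). HSD 2 is red for nearly all genes, ND 1 and ND 2 are blue for nearly all, and Vha68-1 in ND 4 is the darkest blue cell.

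In the brain the diet intervals were narrower than in fat body for most members. None passed in limma (0 of 8910 genes, 0%), and none reached an unadjusted p under 0.05 (0.887% of all genes did). Limma-voom gave 0 members on both counts, beside 90 of all genes at an unadjusted p under 0.05. The paired fit left 1 member, VhaM9.7-1, and 121 of all genes at an unadjusted p under 0.05, with 0 passing adjustment. The diets overlapped for all 17 members in brain too (0.157% of all genes did not overlap). Of these, 8 lay above 0 (61.3% of all genes did) and 9 below, with a median of -0.01, beside 0.02 over all genes. Without brain ND 5, 13 of 17 lay above 0 and the median was 0.06, beside 0.04 over all genes. The catalytic Vha68-1 had a log2 fold change of 0.08 ± 0.06 (SE, 95% interval -0.05 to 0.20), Vha55 of 0.01 ± 0.05 (-0.10 to 0.11), Vha16 of -0.02 ± 0.05 (-0.14 to 0.10) and the synaptic Vha100-1 of 0.00 ± 0.04 (-0.09 to 0.09). By unadjusted p the first 3 were VhaM9.7-1, Vha68-1 and VhaM9.7-2. VhaM9.7-1 lay between 11.3 and 15.8 RPKM on HSD and between 12.7 and 19.6 RPKM on ND (-0.21 ± 0.13, unadjusted p = 0.131, limma), and the difference was -0.12 without brain ND 5. For VhaM9.7-2 the value was -0.11 ± 0.17 and it rested on brain ND 5 (129 RPKM), since it was 0.07 without that library.

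Whether the diet difference itself differed between fat body and brain was tested as an interaction over all 20 libraries. No member and no gene passed (0 of 9280, 0%), and at an unadjusted p under 0.05 there were 1 member, Vha68-1, and 6.44% of all genes. In the paired fit these were 2 members, Vha13 and VhaPPA1-1, and 1011 of all genes, with 0 passing adjustment. Without fat body HSD 4, ND 4 and ND 5 there were 4 members (Vha16, VhaM9.7-1, VhaM9.7-2 and VhaSFD) and 1446 genes, and 23 genes but no member passed adjustment (the lowest adjusted p among members was 0.119, for VhaM9.7-1, limma). Omitting 1 library at a time gave 0 to 4 members and 0 genes called, with 4 members and 981 of all genes when fat body ND 3 was omitted. For Vha68-1 the interaction was 0.46 ± 0.21 on the log2 scale (SE, adjusted p = 0.772, limma), and 0.29 without the shallow library fat body ND 4. The members' median was 0.24, beside 0.16 for all genes. Limma-voom called 0 members, with 0 members and 567 of all genes at an unadjusted p under 0.05.

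Other genes that act with the pump were read from lists of its partners, of which only a part was found by symbol. Found were 3 of 6 assembly factors and regulators, 12 of 21 lysosomal proteins and 5 of 9 sodium proton exchangers. In the other lists, 9 of 14 Ragulator, Rag and TOR genes and 4 of 6 vesicular transporters were found. None passed for diet in either tissue in the lists of assembly factors and regulators (3 genes), lysosomal proteins (12), sodium proton exchangers (4 tested in fat body, 5 in brain), Ragulator, Rag and TOR genes (9) and, in brain, vesicular transporters (4). Between tissues, Rbcn-3A and Rbcn-3B, which form the complex that assembles V1 on V0, were lower in fat body (log2 fold change -2.26 ± 0.15 and -2.15 ± 0.13 on HSD, -2.36 ± 0.12 and -2.10 ± 0.12 on ND, SE, limma). The third gene, the transcription factor Mitf, did not pass. All 4 vesicular transporters (VGlut, VGAT, Vmat and VAChT), which use the proton gradient to fill synaptic vesicles, were lower in fat body, with a list median of -6.48 on HSD and -6.58 on ND.

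Of the 12 lysosomal genes, 5 were higher and 5 lower in fat body on each diet, where 27.2% of all genes were higher and 47.3% lower on HSD and 23.2% and 51.6% on ND. These shares of all genes are the background for the other lists as well. Cp1, a cathepsin L, was 2.83 ± 0.18 on HSD and 2.49 ± 0.22 on ND, and CG10992, cathepsin B, was 1.88 ± 0.16 and 1.78 ± 0.20. On the lower side, the cholesterol transporter Npc1a was -2.06 ± 0.18 and -2.01 ± 0.11, and the hexosaminidase Hexo2 was -1.32 ± 0.14 and -1.50 ± 0.14 (log2 fold change and SE, fat body over brain, on HSD and ND). Of the exchangers tested (5 on HSD, 4 on ND), Nha2 was the 1 higher in fat body, at 4.71 ± 0.27 and 4.30 ± 0.33, while Nhe1, Nhe2 and Nhe3 were lower on both diets. In the Ragulator, Rag and TOR list, 1 gene was higher (Rheb) and 3 were lower (CG5189, CG14812 and CG5110) on HSD, and 0 were higher and 3 were lower (CG5189, Tor and raptor) on ND.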

How the data were processed

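The authors deposited 1 table of RPKM per library, built from reads that mapped uniquely, per the labels, so sequence shared by paralogues does not count towards them. The submitters' processing notes name TopHat and dm3, and the counter and versions are not given in the sources used here. Each table held 15080 rows, and 188 symbols in several rows (1107 rows) were dropped, none of them a Vha symbol. Reads were recovered from the RPKM steps. For each gene the shortest length was taken at which all its values above 0 were whole to within 0.01 read. Every gene with a value above 0 had such a length, so 100.00% of 222274 values were whole by that rule. For a gene with few values above 0 the length, and with it the reads, is uncertain. Library totals inferred from the same steps gave the depths.

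The comparisons used limma 3.58.1 (R 4.3.3) with a trend on log2(RPKM + 1), for genes with a mean of at least 1 RPKM, a scale that understates changes of low genes. The p-values are two-sided and adjusted by Benjamini and Hochberg's method over all genes tested, with a threshold of 0.05. The fits were also run on simulated counts, drawn for each gene on its own without shifts that genes of a library share. Those runs cannot speak to such shifts here, and their outcome is not used. Alternatives were a pseudocount of 0.1, no filter, median-ratio and quantile scaling, limma-voom on recovered reads, a replicate block, a fit of all 20 libraries and leaving out libraries.

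Library values are given for the leading paralogue of each subunit and any with at least 5% of it in a tissue, and for the diet the 3 members with the smallest p are named. The members and lists were chosen with earlier results of these data known. Deviations of same-numbered libraries of the 2 diets from their group means had correlations of 0.26, 0.15, 0.65, 0.23 and 0.13 in fat body. In brain they were 0.44, 0.58, 0.55, 0.3 and 0.66. Differently numbered libraries were not correlated, so these values cannot show that the numbers pair the libraries. The diets were also fitted as pairs, a choice taken from these correlations since no label states the pairing. CG numbers were matched to names through RefSeq Release 6, and no coordinates are given because the files use another assembly.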

Additional observations from a re-analysis of the deposited data

Results flagged for a closer look

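In 11 of 71 groups of 5 libraries a single library of a Vha gene stood apart, with a gap to its neighbour of over 0.71 of the group's range (Dixon's test). Chance flags about 1 group in 20 where groups are independent. Here the genes share libraries, so a single library can set several flags and the 11 cannot be held against that rate. Of the 11 flags, 5 with ample reads were in brain ND 5. High there were Vha13 at 614 RPKM (others 435.8 to 478.8), Vha14 at 249 RPKM (163.1 to 174.4), Vha68-2 at 81.4 RPKM (40.9 to 50.8) and VhaM9.7-2 at 129 RPKM (65.2 to 70.0). At the low end was Vha44 at 121 RPKM (131.3 to 135.4). Brain ND 5 also had the highest fat body marker sum of the brain libraries (10009 RPKM) and the lowest neuron marker sum (1292 RPKM), and the part of this in the 5 values was not tested. In brain HSD 4, Vha100-2 was at 18.5 RPKM (8.29 to 11.1) and Vha16 at 620 RPKM (555 to 571). In the fat body, Vha13 was at 185 RPKM in ND 3 (100.3 to 123.8) and VhaM9.7-1 at 17.1 RPKM in HSD 4 (23.2 to 25.1). Vha100-3 at 0.0103 RPKM in brain ND 5 rested on a single read, and Vha16-3 was at 0.282 RPKM in fat body HSD 3. The other libraries of both groups had 0, so the gap equals the range by construction.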

How the results depend on the processing

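The counts of members called kept within 1.5 times of those reported under all alternatives run, and the diet calls stayed at 0 throughout. Median-ratio scaling moved the members' median log2 fold change to 0.01 for diet in fat body, -1.29 for fat body over brain on HSD, -1.36 on ND and 0.03 for the interaction, and quantile scaling moved it to -1.74 on HSD, 0.11 for diet in fat body and 0.10 for the interaction. VhaM9.7-2 turned its sign on HSD between tissues under median-ratio (0.04) and quantile scaling (0.08), and for diet in brain without brain ND 5 (0.07) or without brain ND 5 and HSD 4 (0.01). Its tissue difference on HSD passed the threshold with no filter (-0.22) and without fat body HSD 2 (-0.25). The cause was not tested. Leaving out 1 library at a time gave medians of 0.17 to 0.31 for diet in fat body, -0.03 to 0.06 for diet in brain, -1.62 to -1.51 between tissues on HSD, -1.83 to -1.77 on ND and 0.16 to 0.30 for the interaction. With the replicate block, which treats same-numbered libraries of the 2 diets as pairs, the medians were 0.23 in fat body and -0.01 in brain with 0 members called, and Vha13 in fat body had an adjusted p = 0.371 (limma). The block changed no call. Between tissues the deviations of same-numbered libraries had correlations of -0.18 to 0.15 on HSD and -0.23 to 0.07 on ND, and the blocked medians were -1.55 and -1.81. Depth limits the genes with few reads: Vha100-3, Vha16-2 and Vha16-3 were not tested.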
